A study of Homo sapiens with 2 samples.

Results

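The BCL2 family genes measured here were BCL2, BCL2L1, MCL1, BAX, BAK1, BBC3, PMAIP1, BCL2L11, BID and BAD. They are 10 of the 19607 genes in the deposited expression table, and were taken by their symbols. The table came from RNA sequencing of CWR22rv1, a human prostate cancer (CaP) line, with 1 library of control cells labelled wild type and 1 library labelled Akt1/2 knockout, called Akt1/2 DKO below. The knockout cells had received CRISPR/Cas9 plasmids against AKT1 and AKT2 together with a puromycin plasmid, were selected with puromycin and were grown from single cells. The labels do not say which clone was sequenced, nor whether the control cells went through the same transfection, selection and cloning. A difference between the libraries therefore cannot be told apart from a difference between a clone and its parent line or between 2 cultures, and it has no replicate check.

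Proteins of the BCL2 family decide whether the outer mitochondrial membrane stays closed or releases cytochrome c. The effectors BAX and BAK1 form the pores, the pro-survival members BCL2, BCL2L1 (BCL-XL) and MCL1 hold them back, and the BH3-only members bind the pro-survival members or activate the effectors. AKT kinases act on several of these proteins: they phosphorylate BAD, which then binds 14-3-3 proteins, and they keep FOXO factors, which can switch on BCL2L11, out of the nucleus. RNA sequencing reports none of these protein modifications, and it does not separate the long and short isoforms of BCL2L1, MCL1 or BCL2L11 at the gene level used here.

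The libraries held 9970820 (control) and 10718650 (Akt1/2 DKO) estimated reads on genes. At these depths 3 reads correspond to 0.301 and 0.28 CPM (counts scaled to a common library total). A fold change is the ratio of reads in Akt1/2 DKO to control after scaling for library size by TMM, which set the ratio of the libraries at 1.11. Its 95% interval is exact (Clopper-Pearson) and covers counting error only. Levels of different genes were compared in FPKM, the authors' measure per transcript length and library size. AKT1 had 2645 reads in the control and 591 in the Akt1/2 DKO library, and AKT2 had 2362 and 667, so both targeted genes were lower in the library labelled knockout. All 11 prostate luminal markers were detected, and their summed reads were 26169 in the control and 40447 in the Akt1/2 DKO library. Summed reads in the control and Akt1/2 DKO libraries were 2 and 0 over the 3 basal markers, 6 and 11 over the 4 leukocyte markers, of which CD14 made up 4 and 10, and 1 and 2 over the 3 endothelial markers. TP63, KRT5, CD3E and CDH5 had 0 reads in both. Summed reads over the 6 fibroblast markers were 1032 in the control and 205 in Akt1/2 DKO, of which VIM made up 897 and 84. Of the 3 fibroblast markers with at least 10 reads, 2 were lower and 1, COL1A1 with 55 and 106 reads, was 1.74-fold higher (1.24 to 2.45). The part of these markers in the results below was not tested. In bulk RNA, fewer cells with a transcript and less of it per cell cannot be told apart.

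All 10 members had at least 10 reads in both libraries together. PMAIP1 and BCL2 were at least 1.5-fold higher in Akt1/2 DKO, and no member was at least 1.5-fold lower. That is 20% of the members, beside 30.9% of all 13318 genes with at least 10 reads that differed by 1.5-fold in either direction, 15.9% higher and 15% lower. Members were thus past 1.5-fold no more often than genes at large. The median log2 fold change was 0.02 over the members and 0.01 over all genes, and the median size of the change, sign ignored, was 0.24 and 0.33. For 5 members (PMAIP1, BCL2, BCL2L11, BAX and BAK1) the counting interval left out no change, beside 59.2% of all genes tested, so this too was no more frequent among the members. The other 5 (BCL2L1, MCL1, BBC3, BID and BAD) had ratios within 10% of 1. Scaling to GAPDH, whose own reads were 1.38-fold lower in Akt1/2 DKO, would add 0.47 to every log2 fold change of scaled reads, so that values between -0.47 and 0, list and neighbourhood medians included, change sign under it. Ratios of members within a library and FPKM values do not move.

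**Figure D1:**
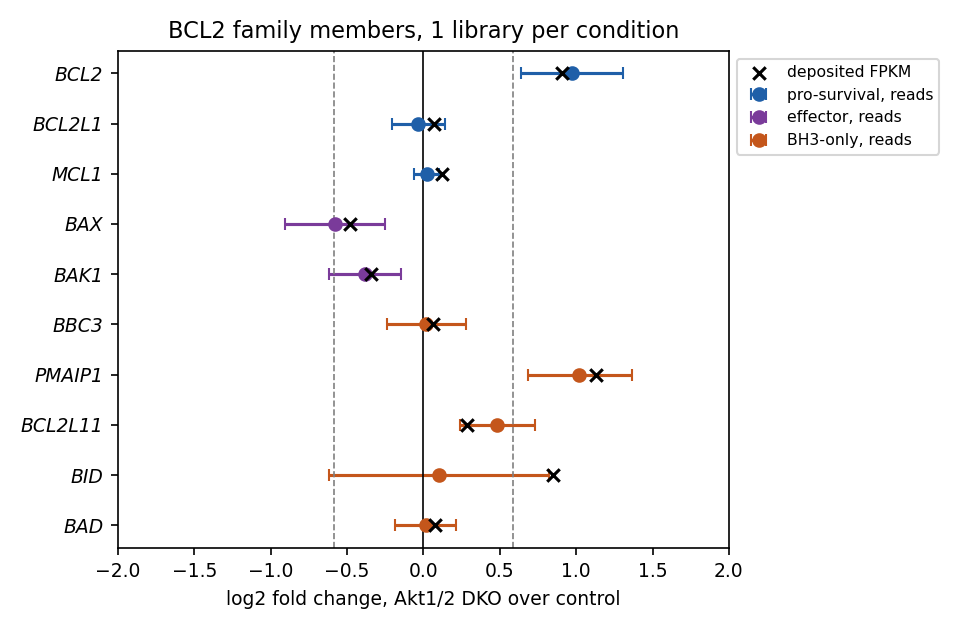
Log2 fold change of each BCL2 family member, Akt1/2 DKO over control, from TMM-scaled reads (coloured points, bars are exact 95% counting intervals) and from the deposited FPKM (crosses); dashed lines mark 1.5-fold. PMAIP1 and BCL2 lie beyond the right dashed line, BAX lies just inside the left one at -0.58, and the cross of BID lies at 0.85 while its point lies at 0.10.

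Among the pro-survival members only BCL2 had a counting interval that left out no change. BCL2 (ENSG00000171791), the founding member, which protects cells at the mitochondrial and endoplasmic reticulum membranes, lies on chromosome 18 from 63123346 to 63320128 on the minus strand in GRCh38. It had 110 reads in the control and 239 in Akt1/2 DKO, and its FPKM was 2.11 and 3.96. The ratio of scaled reads was 1.96 (95% interval 1.56 to 2.48), a log2 fold change of 0.97. BCL2 was the least abundant pro-survival gene in both libraries, and its share of the summed pro-survival FPKM was 2.26% in the control and 3.88% in Akt1/2 DKO.

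BCL2L1 (ENSG00000171552, chromosome 20 from 31664452 to 31723989, minus strand), whose long product BCL-XL blocks BAX and BAK1 and whose short product opposes it, had 546 reads in the control and 592 in Akt1/2 DKO. Its FPKM was 31.0 and 32.6, and the ratio of scaled reads was 0.978 (0.869 to 1.10). MCL1 (ENSG00000143384, chromosome 1 from 150574551 to 150579738, minus strand), a short-lived protein that holds BAK1 and binds the PMAIP1 product NOXA, had 2368 and 2663 reads. Its FPKM was 60.2 and 65.6, the highest of the family in both libraries, and the ratio was 1.01 (0.959 to 1.07). The counting interval of MCL1 was the narrowest of the family, and it does not cover variation between cultures. MCL1 made up 64.5% of the summed pro-survival FPKM in the control and 64.2% in Akt1/2 DKO.

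Both effector genes were lower in Akt1/2 DKO after TMM scaling, and neither reached 1.5-fold. BAX (ENSG00000087088, chromosome 19 from 48954815 to 48961798, plus strand), which moves from the cytosol to the mitochondria to form pores, had 187 reads in the control and 139 in Akt1/2 DKO, with an FPKM of 22.9 and 16.4. It was 1.49-fold lower (1.19 to 1.87), a log2 fold change of -0.58, just short of the threshold. BAK1 (ENSG00000030110, chromosome 6 from 33572547 to 33580293, minus strand), which sits in the mitochondrial membrane throughout, had 329 and 280 reads, with an FPKM of 15.2 and 12.0. It was 1.30-fold lower (1.11 to 1.53), a log2 fold change of -0.38. With scaling to GAPDH in place of TMM, BAX was at -0.11 and BAK1 changed sign to 0.09 on the log2 scale, so the direction of BAK1 holds for the other scalings only. The annotation holds the pseudogenes BAK1P1 and BAK1P2, with which BAK1 may share reads, so its count is uncertain to that extent.

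Of the BH3-only members, PMAIP1 stood past 1.5-fold, BCL2L11 was next and BBC3, BID and BAD had ratios close to 1. PMAIP1 (ENSG00000141682, chromosome 18 from 59899948 to 59904306, plus strand) encodes NOXA, which binds chiefly MCL1 and promotes its degradation. It had 104 reads in the control and 234 in Akt1/2 DKO, with an FPKM of 5.32 and 11.6. The ratio of scaled reads was 2.03 (1.60 to 2.58), a log2 fold change of 1.02, the largest of the family. The share of PMAIP1 in the summed BH3-only FPKM was 7.30% in the control and 13.6% in Akt1/2 DKO.

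BCL2L11 (ENSG00000153094, chromosome 2 from 111119378 to 111168447, plus strand) encodes BIM, which binds all pro-survival members and can activate BAX and BAK1. It had 228 reads in the control and 353 in Akt1/2 DKO, 1.40-fold more after scaling (1.18 to 1.66), a log2 fold change of 0.48. Its FPKM was 9.52 and 11.6, a ratio of 1.22, so the authors' measure gave a smaller difference than the reads did.

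BBC3 (ENSG00000105327, chromosome 19 from 47220822 to 47232766, minus strand), which encodes PUMA, a potent binder of all pro-survival members, had 237 reads in the control and 266 in Akt1/2 DKO, a ratio of 1.01 (0.847 to 1.21). BAD (ENSG00000002330, chromosome 11 from 64269830 to 64284704, minus strand), a BH3-only protein that binds BCL2 and BCL-XL unless phosphorylated by AKT and other kinases, had 402 and 450 reads, a ratio of 1.01 (0.881 to 1.16). FPKM was 12.8 and 13.4 for BBC3, and 43.5 and 45.8 for BAD. BAD was the second most abundant member in both libraries and the only one whose estimated count was not a whole number (401.9 and 449.61), and it overlaps GPR137 on the opposite strand, a gene that is also in the table.

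BID (ENSG00000015475, chromosome 22 from 17734138 to 17774770, minus strand), which caspase-8 cleaves to carry the death receptor signal to mitochondria, was the member with the fewest reads, 32 in the control and 38 in Akt1/2 DKO. The ratio of scaled reads was 1.07, with an interval from 0.652 to 1.77, so a change of 1.5-fold in either direction was not detectable at this depth. Its FPKM was 1.68 and 3.02, a ratio of 1.80, which is past 1.5-fold and just outside that interval. One unit of FPKM stood for 19.0 reads of BID in the control and 12.6 in Akt1/2 DKO. Beside the median shift of all genes this corresponds to an effective length 1.63-fold shorter in Akt1/2 DKO, and 2.31% of 10941 genes were off that median by more than 0.5 on the log2 scale. For BCL2L11 the shift went the other way and was 0.24, and 8.60% of genes were off by more than 0.25. For the other 8 members reads per FPKM stayed within 0.11 of the median shift. Whether a different mix of transcript isoforms lies behind the values of BID and BCL2L11 was not tested.

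Strand-specific counting is not stated for these libraries. Genes on the opposite strand overlap BCL2 (AC022726.2), BCL2L1 (ABALON and AL117381.1), BAK1 (GGNBP1), BBC3 (MIR3190), BCL2L11 (MIR4435-2HG) and BAD (GPR137), and reads of these pairs cannot be told apart without strand. Genes on the same strand overlap BCL2 (AC022726.1), MCL1 (ADAMTSL4-AS1), BBC3 (MIR3191) and BID (MIR3198-1), and strand would not separate their reads. BAX and PMAIP1 overlap no other annotated gene.

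**Figure D2:**
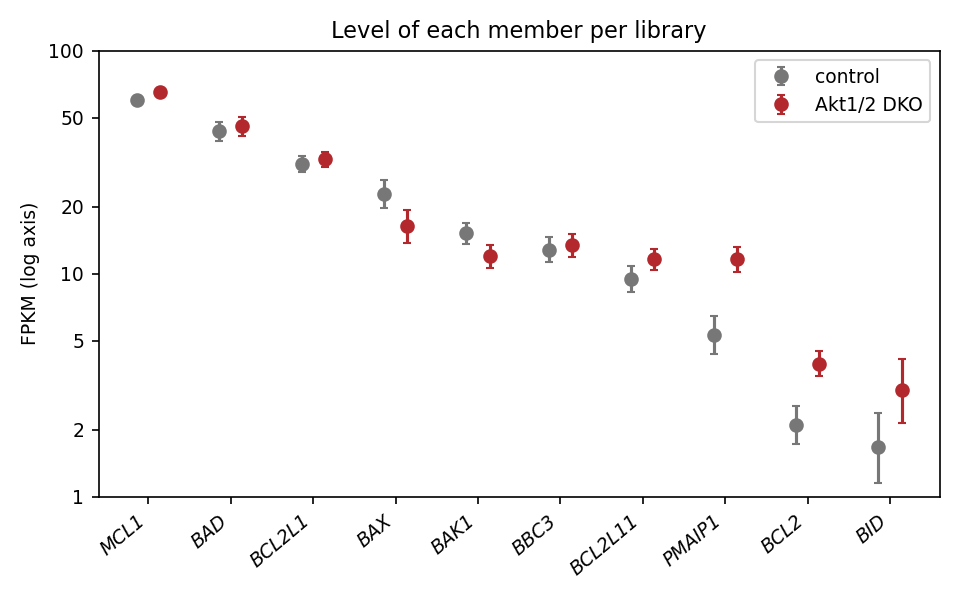
FPKM of each member in the control library (grey) and the Akt1/2 DKO library (red) on a log axis, ordered by the control level, with 95% Poisson intervals of the reads. MCL1, BAD and BCL2L1 are the 3 highest in both libraries, BCL2 and BID the 2 lowest, and PMAIP1 moves up from 5.32 to 11.6.

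In FPKM, the order of the family in the control was MCL1, BAD, BCL2L1, BAX, BAK1, BBC3, BCL2L11, PMAIP1, BCL2 and BID. Only BAK1 and BBC3, and BCL2 and BID, had overlapping counting intervals there among neighbours in that order. In Akt1/2 DKO the first 3 kept their places. BAX, BBC3, BAK1, PMAIP1 and BCL2L11 followed, with levels from 16.4 down to 11.6, and each overlapped the next. BCL2 at 3.96 (3.47 to 4.50) and BID at 3.02 (2.14 to 4.15) came last and also overlapped. The 5 middle genes, which spread from 22.9 to 5.32 in the control, thus lay within a narrower range in Akt1/2 DKO. Among the 15491 genes with an FPKM above 0 in either library, PMAIP1 stood at percentile 43.8 in the control and 58.1 in Akt1/2 DKO, BCL2 at 32.0 and 38.5, and BAX at 73.7 and 66.5.

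Summed by role, the FPKM of the 3 pro-survival members was 93.3 in the control and 102.14 in Akt1/2 DKO, a ratio of 1.09 (1.04 to 1.15). The 2 effectors summed to 38.1 and 28.4, a ratio of 0.745 (0.644 to 0.861), and the 5 BH3-only members to 72.9 and 85.5, a ratio of 1.17 (1.07 to 1.28). The effector sum was the only one lower in Akt1/2 DKO. These sums cover only the members described here, and 2 other family genes named below moved against the sum of their role. The BH3-only gene BMF had an FPKM of 13.5 in the control and 5.37 in Akt1/2 DKO. The BAX-like effector BOK had 4.39 and 6.52. Role sums with other family genes added were not computed. FPKM is not TMM-scaled, so part of a small ratio can come from the scaling. By TMM-scaled reads MCL1 and BCL2L1, which made up most of the pro-survival sum, had ratios of 1.01 and 0.978. With reads per kilobase of exon scaled to a common sum, the ratios of the role sums were 1.05 (pro-survival), 0.762 (effector) and 1.20 (BH3-only). The BH3-only sum was 0.781 of the pro-survival sum in the control and 0.837 in Akt1/2 DKO, a ratio of 1.07 whose interval (0.967 to 1.19) included no change. The effector sum was 0.408 and 0.278 of the pro-survival sum, and its ratio of 0.680 (0.583 to 0.794) left out no change. These sums treat every transcript alike and say nothing of protein amounts. BAD alone made up 59.7% of the BH3-only sum in the control and 53.6% in Akt1/2 DKO.

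Pro-survival proteins hold the effectors back and are themselves bound by BH3-only proteins. Each of the 7 pro-apoptotic members was therefore also set against each of the 3 pro-survival members within a library. No scaling between libraries can move such a ratio. Of the 21 pairs, 14 had a counting interval that left out no change, 10 lower and 4 higher in Akt1/2 DKO, and 8 changed by at least 1.5-fold. Among single genes, 59.2% of all tested had an interval that left out no change and 30.9% were past 1.5-fold. No such share was computed for pairs of other genes, so these counts are not read as a result about the family. The pairs share members, so they are not separate results, and 6 of the 10 lower pairs share the one difference of BCL2. All pairs over BCL2 were lower except PMAIP1 over BCL2, which was 0.945 in the control and 0.979 in Akt1/2 DKO by reads, a ratio of 1.04 (0.740 to 1.45). The reads of BAX over those of BCL2 were 1.70 in the control and 0.582 in Akt1/2 DKO, 2.92-fold lower (2.11 to 4.06). In FPKM the same ratio was 10.8 and 4.13, so BAX stayed the more abundant transcript per length in both libraries. BAK1 over BCL2 was 2.55-fold lower (1.92 to 3.40). BID over BCL2 was 1.83-fold lower by reads (1.05 to 3.18), but 0.796 in the control and 0.763 in Akt1/2 DKO in FPKM.

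Against MCL1 and BCL2L1, the picture turned on PMAIP1 and BCL2L11. PMAIP1 over MCL1 was 0.0884 in FPKM in the control and 0.177 in Akt1/2 DKO, and by reads the ratio was 2.001-fold higher (1.57 to 2.56). PMAIP1 over BCL2L1 was 2.08-fold higher (1.59 to 2.72). BCL2L11 over MCL1 was 1.38-fold higher by reads (1.15 to 1.65) and 1.12-fold by FPKM. BAX and BAK1 were lower over both MCL1 and BCL2L1, by 1.27-fold to 1.51-fold, and BBC3, BID and BAD over both had intervals that included no change.

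**Figure D3:**
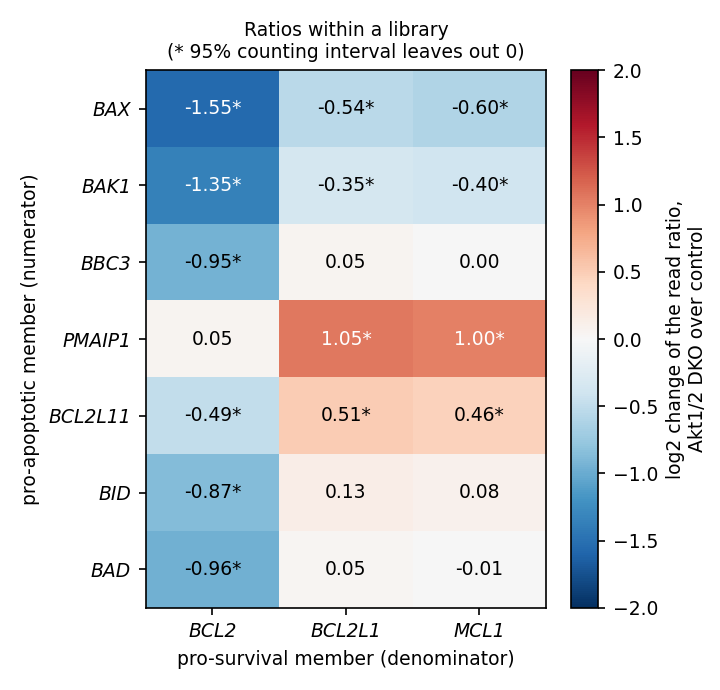
Log2 change, Akt1/2 DKO over control, of the ratio of reads of each pro-apoptotic member (rows) to each pro-survival member (columns) within a library; an asterisk marks a 95% counting interval that leaves out 0. The BCL2 column is blue except for PMAIP1 at 0.05, the PMAIP1 row is red over BCL2L1 (1.05) and MCL1, and both effector rows are blue throughout.

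BCL2 and PMAIP1, the members past 1.5-fold, lie on the long arm of chromosome 18, 3.22 Mb apart, so the genes around them were read for a difference shared by the region. The 4 genes with at least 50 reads between them, PIGN, KIAA1468, ZCCHC2 and PHLPP1, had log2 fold changes from -0.39 to -0.02, none above 0. The median over the 20 nearest genes, 10 on each side, was -0.24 around BCL2 and -0.19 around PMAIP1, and these sets share genes. Of the 20 genes, 5 around BCL2 and 6 around PMAIP1 were above 0. The counts, medians and SDs include PMAIP1 among the genes around BCL2, and BCL2 among those around PMAIP1. BCL2 and PMAIP1 lay 1.21 log2 units above the median of their surroundings in each case, which is within the SD of 1.57 and 1.60 over those genes. Among the same neighbours SERPINB8, with 24 and 56 reads, and DSEL, with 281 and 468, were also past 1.5-fold higher in Akt1/2 DKO. The region held genes with far larger differences, lower in Akt1/2 DKO: ZNF532 had 541 reads in the control and 62 in Akt1/2 DKO, LMAN1 609 and 109, NEDD4L 1242 and 380, and CDH7 485 and 11. These 6 neighbours were chosen after their values were seen. Over the 160 genes of chromosome 18 the median was -0.19, with 47 above 0, which was the third lowest of the chromosomes after chromosomes 3 and 8.

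**Figure D4:**
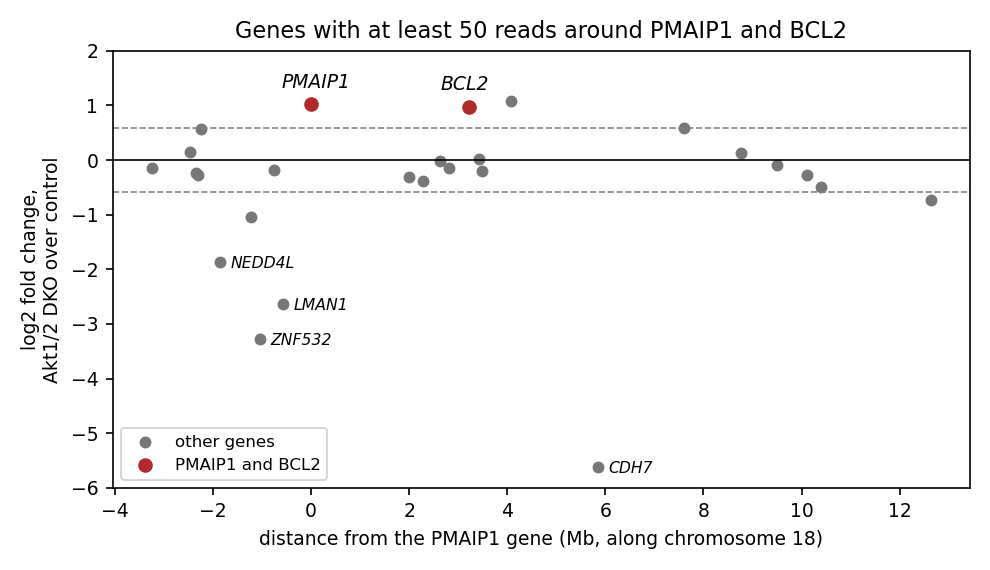
Log2 fold change, Akt1/2 DKO over control, of genes with at least 50 reads around PMAIP1 and BCL2, by distance along chromosome 18 from PMAIP1 in megabases; dashed lines mark 1.5-fold. PMAIP1 and BCL2 (red) lie near 1 while the 4 genes between them lie at or below 0, and ZNF532, LMAN1, NEDD4L and CDH7 lie far below.

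The surroundings of BAX went the other way. Of the 20 nearest genes on chromosome 19, 17 were above 0, 10 were at least 1.5-fold higher in Akt1/2 DKO and none was 1.5-fold lower, with a median of 0.57. With 25 genes on each side the median was 0.10. GYS1, the muscle-type glycogen synthase, had 1336 reads in the control and 7573 in Akt1/2 DKO, and PPP1R15A (GADD34), a stress-induced phosphatase subunit, had 341 and 745. Both were chosen after their values were seen. BAX was 1.14 log2 units below the median of its surroundings, beside an SD of 1.01 over them. For the other 7 members the 20 nearest genes (16 for BID) had medians from -0.11 to 0.24, and BCL2L11 was 0.59 above (SD 1.69) and BAK1 0.42 below theirs (SD 0.291).

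Windows of 250 bases before each RefSeq start (GRCh38.p14) were taken, of which the members had 15. The window of BCL2L11, like some others, lies inside the span of the gene given above, so upstream here means before a RefSeq start. The windows were searched for motifs bound by factors of the stress response, MYC-type and FOXO pathways. Letters are given for PMAIP1, BCL2L11 and BAX because these members had intervals that left out no change and had one of these motifs in upstream sequence clear of any annotated exon. Capitals mark CGTCA (a core bound by the ATF and CREB factors) in PMAIP1, GTAAACA (the core of forkhead sites) in BCL2L11, and CACGTG (the E-box) with the overlapping TGACG, which is CGTCA on the other strand, in BAX.
PMAIP1, chr18:59899746-59899947, plus strand: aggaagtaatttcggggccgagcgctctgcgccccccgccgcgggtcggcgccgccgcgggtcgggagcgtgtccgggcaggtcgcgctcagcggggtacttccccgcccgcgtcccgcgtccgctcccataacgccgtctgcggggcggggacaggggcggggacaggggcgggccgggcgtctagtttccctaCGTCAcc
BCL2L11, chr2:111120664-111120913, plus strand: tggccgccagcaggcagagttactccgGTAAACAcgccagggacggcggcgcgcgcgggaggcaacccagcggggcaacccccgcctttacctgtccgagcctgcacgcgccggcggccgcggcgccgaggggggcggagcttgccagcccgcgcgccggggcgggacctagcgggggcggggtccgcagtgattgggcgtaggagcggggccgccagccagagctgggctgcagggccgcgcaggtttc
BAX, chr19:48954625-48954814, plus strand: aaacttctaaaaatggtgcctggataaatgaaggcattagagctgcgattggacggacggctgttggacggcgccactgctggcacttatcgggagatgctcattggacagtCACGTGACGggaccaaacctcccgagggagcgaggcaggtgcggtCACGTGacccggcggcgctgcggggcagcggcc
The window of BCL2 lies within annotated exons, and the 30 bases around its CGTCA, on the minus strand, read as follows.
BCL2, chr18:63319977-63320006: cctgccggcggcCGTCAgcgctcggagcgg

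On either strand, GTAAACA occurred in the window of 1 member, BCL2L11, 223 bases before its RefSeq start, and in 2.98% of all 35116 windows. CACGTG occurred in BAX (4 times), BBC3 and BID, in 4 of the 15 member windows, and in 6.34% of all windows. CGTCA occurred in PMAIP1, 55 bases before the start, in BCL2, and also in BAX, BAD and BCL2L1, and in 21.2% of all windows, so it was held by both members that were past 1.5-fold and by 3 that were not. The full element TGACGTCA was in no member's window and in 1.65% of all windows. These matches are descriptions of the letters, and binding was not measured.

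The factors known to act on BH3-only genes included several with higher reads in Akt1/2 DKO. Of 9 such factors, 4 were at least 1.5-fold higher in Akt1/2 DKO and none was 1.5-fold lower, beside 15.9% and 15% of all genes tested. Their median log2 fold change was 0.54 beside 0.01 over all genes. TP73, a damage response factor that can act on BBC3 and PMAIP1, had 16 reads in the control and 174 in Akt1/2 DKO, 9.81-fold higher (5.87 to 17.5). FOXO1, a forkhead factor held in the cytoplasm by AKT, had 36 and 110 reads, 2.76-fold higher (1.88 to 4.14), and FOXO4 had 28 and 65, 2.09-fold higher (1.33 to 3.39). All 3 had few reads in the control. DDIT3 (CHOP), a factor of the endoplasmic reticulum stress response, had 359 and 654 reads, 1.64-fold higher (1.44 to 1.87), and its partner ATF4 had 7815 and 9944, 1.15-fold higher (1.11 to 1.18). E2F1, the cell cycle factor, had 977 and 1578 reads, 1.46-fold higher (1.34 to 1.58), and was past 1.5-fold by FPKM (38.9 and 58.4). FOXO3 had 520 and 579 reads, a ratio of 1.004 (0.891 to 1.13), and JUN 507 and 607, a ratio of 1.08 (0.958 to 1.22).

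Among 12 damage response genes outside the family, 1 was higher, 3 were lower and 8 were within 1.5-fold, with a median of -0.12. PLK3, a stress-responsive polo-like kinase, had 156 reads in the control and 4081 in Akt1/2 DKO, 23.6-fold higher (20.1 to 27.9). ZMAT3, an RNA-binding zinc finger protein, had 349 and 194 reads, 1.99-fold lower (1.67 to 2.39). CDKN1A, which encodes the cell cycle inhibitor p21, had 1273 and 911 reads, 1.55-fold lower (1.42 to 1.69). By FPKM 1 was higher and 2 were lower.

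The other BCL2 family genes numbered 13, of which 9 had at least 10 reads, BCL2A1 was at 0 in both libraries, 2 were lower and none was higher. BMF, a BH3-only member tied to the cytoskeleton, had 513 reads in the control and 193 in Akt1/2 DKO, 2.95-fold lower (2.49 to 3.50), a larger difference than that of any of the 10 members described here. BNIP3L (NIX), which marks mitochondria for autophagy, had 484 and 357 reads, 1.503-fold lower (1.31 to 1.73), and by FPKM (25.6 and 18.3) it was no longer past 1.5-fold, which left BMF alone. BOK, a BAX-like effector, had 117 and 187 reads, a ratio of 1.44 (1.14 to 1.83).

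Of 18 BAD kinases and 14-3-3 genes with at least 10 reads, 2 were higher and 4 lower, AKT1 and AKT2 among the latter, with a median of -0.17. SFN (14-3-3 sigma) had 9187 reads in the control and 2759 in Akt1/2 DKO, 3.69-fold lower (3.54 to 3.85). The remaining kinases past 1.5-fold, named after their values were seen, were PAK1 with 771 and 334 reads, PIM1 with 180 and 398, and PIM3 with 1466 and 2651. PIM kinases phosphorylate BAD as AKT does. Of 6 genes of MCL1 turnover, 1 was lower and 5 were within 1.5-fold by reads, while by FPKM 1 was higher and none was lower. GSK3B, a kinase that marks MCL1 for degradation and is itself held back by AKT, had 1715 and 1172 reads, 1.62-fold lower (1.51 to 1.75). USP9X, which removes ubiquitin from MCL1, had 912 and 1496 reads, 1.48-fold higher (1.36 to 1.61), and by FPKM GSK3B (34.3 and 24.1) was short of 1.5-fold and USP9X (10.1 and 15.3) was past it. BTRC, a ubiquitin ligase subunit, had 317 and 385 (1.10, 0.942 to 1.28).

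Downstream of mitochondria, 1 of 11 apoptosome and caspase genes was lower, none was higher and 10 were within 1.5-fold, with a median of -0.12. CASP6, an executioner caspase, had 212 reads in the control and 149 in Akt1/2 DKO, 1.58-fold lower (1.27 to 1.96). CYCS, which encodes cytochrome c, had 2411 and 3891 reads, 1.46-fold higher (1.38 to 1.53), and HTRA2, a protease released with it, had 387 and 626, also 1.46-fold higher (1.28 to 1.66). By FPKM CASP6 (14.3 and 9.56) was short of 1.5-fold and HTRA2 (17.45 and 27.4) was past it, so the one call of this list changed gene and direction. Of 6 inhibitors of apoptosis with at least 10 reads, 1 was higher (BIRC3, 2 and 11 reads, interval 1.08 to 46.1) and none was lower. BIRC6, a giant inhibitor with ubiquitin ligase activity, had 1516 and 1236 reads, 1.36-fold lower (1.26 to 1.47), and NAIP had 37 and 32. XIAP, which blocks caspases directly, had 366 and 464 reads, a ratio of 1.14 (0.995 to 1.32), while its FPKM was 13.8 and 7.51, so reads and FPKM differed in direction.

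None of 9 death receptor genes with at least 10 reads was past 1.5-fold by reads. CASP8, the caspase that cleaves BID, had 60 reads in the control and 94 in Akt1/2 DKO, a ratio of 1.41 (1.01 to 1.99). TNFRSF10A, a TRAIL receptor, had 163 and 244 (1.35, 1.10 to 1.66), and TRADD, an adaptor, had 105 and 93 (0.799, 0.598 to 1.07). By FPKM 2 genes of this list were past 1.5-fold, TNFRSF10A with 6.14 and 11.8 and CASP8 with 4.02 and 6.63. Over these 8 lists together, 80 genes were tested, of which 8 were higher and 11 lower, or 23.8%, again no more than the 30.9% of all genes.

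**Figure D5:**
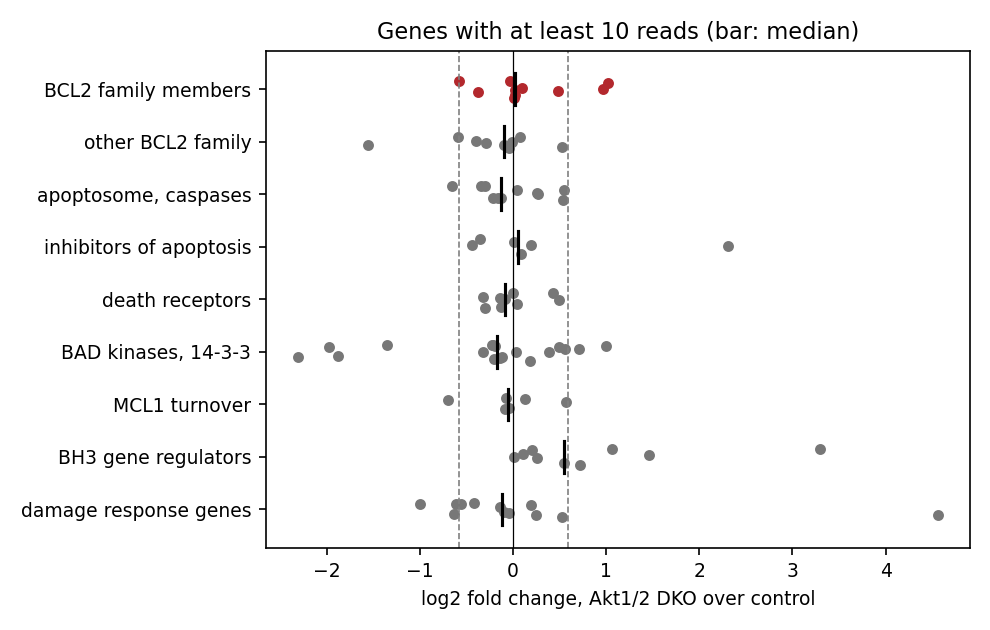
Log2 fold change, Akt1/2 DKO over control, of the 10 BCL2 family members (red) and of the genes of 8 lists of other apoptosis genes (grey) with at least 10 reads; each point is a gene, black bars are medians, dashed lines mark 1.5-fold. The BH3 gene regulators have the highest median at 0.54, the other medians lie between -0.17 and 0.05, and PLK3 lies farthest right at 4.56.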

How the data were processed

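RNA of CWR22rv1 cells was sequenced as 1 Akt1/2 DKO and 1 control library. For each of 19607 genes the authors deposited estimated counts of reads, not normalized, and FPKM values. Per the labels' processing notes, fastp 0.20.0, TopHat, Cufflinks, edgeR and the build GRCh38.p10 were used by the submitters, without their roles. The counting tool and strand setting are not given in the sources used here. A deposited table of the authors' own comparison holds fold changes and p-values and was not used.

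Reads are these estimates after rounding, scaled by TMM (edgeR 4.0.16, R 4.3.3). The TMM factors were computed on genes with at least 10 reads in both libraries together, with library totals taken over all genes. Genes with at least 10 reads in both libraries together were kept. A gene was counted as higher or lower at 1.5-fold or more. With 1 library per condition no p-value was computed, and libraries with few reads of a gene give wide exact 95% intervals (scipy 1.17.1), which cover counting error only. Intervals of FPKM are Poisson intervals of the reads, and intervals of sums and of ratios between members also carry counting error alone.

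The members and the gene lists were chosen with earlier results of these data known. Named genes are the 10 members, AKT1, AKT2, up to 3 genes a list with the largest change among those with at least 50 reads, and all regulators of BH3-only genes with at least 50 reads. Some results under this rule are not reported here. Others are said to be chosen after their values were seen. The within-library ratios, the reads per FPKM and the searched letters were also chosen after the data were seen. Positions come from GENCODE release 29, which holds 19571 of the identifiers, and neighbours are genes with at least 50 reads. Upstream sequences come from RefSeq (GRCh38.p14), in which all 10 members matched. Alternatives were scaling by total counts, DESeq2 1.42.0 size factors, upper-quartile factors or GAPDH, the FPKM ratio, other read filters and a 2-fold threshold. The steps were tested on simulated data.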

Additional observations from a re-analysis of the deposited data

How the results depend on the processing

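Neither BCL2 nor PMAIP1, the members past 1.5-fold, changed direction under an alternative. BAK1 changed sign with GAPDH, and BCL2L1 with GAPDH, total counts, upper-quartile factors and FPKM. Of 60 member values under an alternative, 49 stayed within their counting interval, and 9 of the 11 outside came from scaling to GAPDH. Total counts, size factors and upper-quartile factors shift every value by no more than 0.052, so these values could hardly leave it. GAPDH had 51120 reads in the control and 40953 in Akt1/2 DKO, and scaling to it raised every log2 fold change, and the median of all genes, by 0.47. BCL2 was then at 1.44, BCL2L1 at 0.44, MCL1 at 0.49, BAX at -0.11, BAK1 at 0.087, BBC3 at 0.49, PMAIP1 at 1.49, BCL2L11 at 0.95 and BAD at 0.48. All genes past 1.5-fold numbered 6294, with 5296 higher and 998 lower, in place of 4117 with 2120 and 1997, and BCL2L11 joined BCL2 and PMAIP1. With FPKM, MCL1 was at 0.12 and BID at 0.85, which made 3 members past 1.5-fold, and 2 of 21 pair ratios left their interval, BCL2L11 over MCL1 (1.12) and BID over BCL2 (0.958). In the lists of other genes, FPKM removed BNIP3L, CASP6 and GSK3B and added HTRA2, USP9X, E2F1, XIAP, CASP8 and TNFRSF10A among the genes named. At 2-fold, 1 member (PMAIP1), 2390 of all genes and 10 genes of the lists were past the threshold. Without the highest member of each role, the BH3-only sum had a ratio of 1.35 and its ratio to the pro-survival sum was 1.22. Total counts, size factors and upper-quartile factors left BCL2 and PMAIP1 as the members past 1.5-fold. No paired analysis was possible because neither condition has a second library, so no replicate could be left out either. Depth limits BID most, with 32 and 38 reads.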
